A study of Mus musculus with 5 samples.

Results

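The 251 cells described here are CD4 T cells, the helper and regulatory T lymphocytes, among 38337 cells of mouse hearts that kept mitochondrial transcripts at or under 10% of their counts (47319 barcodes were deposited in all). A cell was taken as a CD4 T cell if it carried at least 2 UMIs (unique molecular identifiers, 1 per captured transcript) of Cd3d, Cd3e and Cd3g together, at least 1 of Cd4 and none of Cd8a or Cd8b1. It could hold at most 1 UMI of 5 cell cycle genes and at most 1 of 5 B cell and macrophage genes. Cells with at least 1 Foxp3 UMI were read as the regulatory subset and numbered 10. Hearts of 4 control mice (Ctla4+/+Pdcd1-/-) gave libraries 1 and 2, and hearts of 10 mice of the myocarditis model (Ctla4+/-Pdcd1-/-, called disease here) gave libraries 3, 4 and 5. All mice of both groups lacked Pdcd1, so the groups differ in the number of Ctla4 alleles. Hearts were pooled and digested, and nucleated living cells (DRAQ5-positive, DAPI-negative) were sorted before 5-prime single-cell RNA sequencing. Age, sex and strain, and which mice entered which library, are not given in the labels, so p-values measure only the spread between libraries. The per-library labels of libraries 2, 4 and 5 name Pdcd2 or Pdcd3 in place of Pdcd1, and groups were taken from their Ctla4 part, which follows the study's design.

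CD4 T cells recognise peptides on major histocompatibility complex class II molecules. Naive cells circulate through lymphoid organs and, once activated, become helper cells that act through cytokines and through CD40 ligand, whereas regulatory cells, defined by the transcription factor Foxp3, restrain other lymphocytes and carry much CTLA-4. CTLA-4 and PD-1 (encoded by Ctla4 and Pdcd1) are inhibitory receptors of activated T cells, and antibodies against them are used in cancer therapy, with myocarditis as a known complication.

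The gate gave 41 and 21 CD4 T cells from control hearts and 19, 133 and 37 from disease hearts, so library 4 held most of them. Their summed depth was 199378, 81341, 69728, 477032 and 145968 UMIs in libraries 1 to 5, with a median of 3113 to 4186 UMIs per cell. The same gate with Cd8 in place of Cd4 gave 2465 CD8 T cells, while 106 T cells carried both markers and 444 carried neither. Cd4 itself was sparse: 115 of the 251 cells had exactly 1 Cd4 UMI. Further, 12 had a Cd3 sum of exactly 2, 97 had 1 B cell or macrophage UMI, and 4 had 9 to 10% mitochondrial UMIs, with 3 otherwise matching cells at 10 to 11%. Of the T cells with both markers, 21 had a single Cd8 UMI. Of the T cells with a Cd8 UMI, 0 to 6.30% per library also held Cd4, against 32.8 to 37.3% of those without one. No CD4 T cell barcode was shared between libraries, although pairs of libraries shared 86 to 161 barcodes in all.

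Markers were then set against the label. Cd3e, part of the gate, was found in 89.5 to 97.7% of the cells per library. Icos was found in 73.2, 28.6, 42.1, 69.9 and 78.4% of CD4 T cells of libraries 1 to 5, and Il2ra in 4.88, 0, 10.5, 2.26 and 13.5%, so Il2ra marked few of them. Cd40lg, which encodes the CD40 ligand of helper cells, was found in 10 of 41 and 1 of 21 control CD4 T cells and in 10 of 19, 36 of 133 and 14 of 37 disease CD4 T cells, or 24.4, 4.76, 52.6, 27.1 and 37.8%. In CD8 T cells of the same libraries its share was 0.280, 5.13, 1.41, 0.712 and 0.442%, so the share was higher in CD4 T cells in every library but library 2, where the level was 36.9 against 9.81 CPM (UMIs of a gene per 1e6 summed UMIs). The 8 natural killer genes together held 37 and 3 UMIs in control and 3, 47 and 15 in disease CD4 T cells, 20 of the 37 in 1 cell, and of these genes Klrb1c had none. The 8 genes of gamma-delta and natural killer T cells held 10 and 2 against 3, 16 and 11 UMIs. Transcripts of non-lymphoid cells were present: the summed level of 10 fibroblast genes was 11942 and 332 CPM in control and 918, 3417 and 2411 CPM in disease CD4 T cells, and 10 endothelial genes reached 497 to 3237 CPM. Of blood-derived cells, 12 macrophage and monocyte genes summed to 1189 and 295 CPM in control and 617, 1015 and 534 CPM in disease CD4 T cells, with at least 2 of their UMIs in 23.8 to 78.0% of the cells per library. The 11 dendritic cell genes summed to 3300 and 61.5 CPM in control and 71.7, 545 and 233 CPM in disease CD4 T cells, and 620 of the 658 UMIs of library 1 lay in 1 cell. In all, 21 cells, 6 and 1 in control and 1, 10 and 3 in disease libraries, held at least 20 UMIs of 1 list of another cell type, and 1 cell of library 1 held 551 fibroblast UMIs. Scrublet called 12 of the 251 cells doublets, and these were kept in the main analysis.

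CD4 T cells made up 0.442 and 0.376% of all cells in libraries 1 and 2 and 0.326, 1.33 and 0.481% in libraries 3 to 5. Library 4 stood above the other 4 libraries, which differed little from each other, and the groups overlapped. The group means of 0.409 ± 0.0470% (SD, n = 2) and 0.714 ± 0.543% (SD, n = 3) differed by 0.305 percentage points (exact two-sided permutation test on the library values, p = 0.8). Against CD8 T cells, CD4 T cells were the minority everywhere, with 10.3 and 35.0% of the CD4 and CD8 T cells together in control and 21.1, 7.92 and 7.57% in disease libraries. The mean was lower in disease by 10.5 percentage points (-10.5, exact permutation p = 0.5), and this order rested on library 2, where only 39 CD8 T cells were found: without it the difference was 1.90. With 2 libraries against 3 the smallest p that the permutation test can give is 0.1, and the 2 comparisons here and that of Foxp3 below had a Benjamini-Hochberg adjusted p of 0.8 each.

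**Figure D1:**
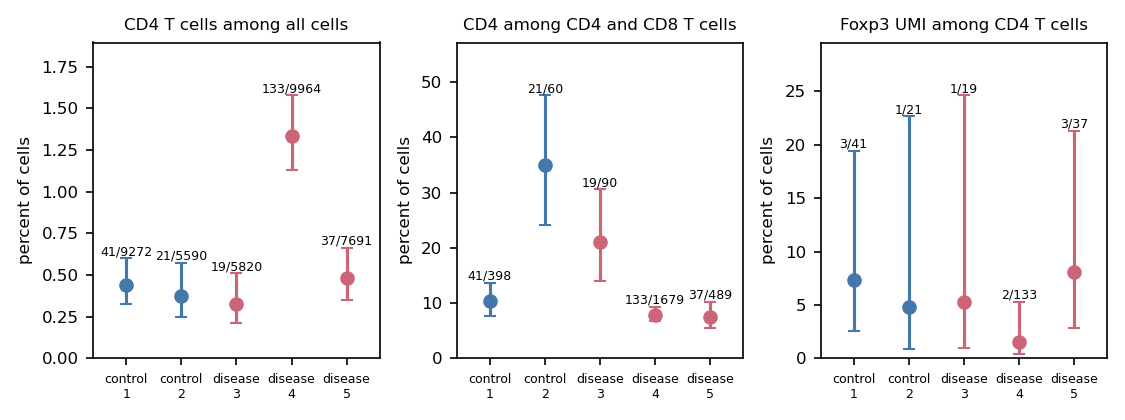
Percent of cells (y axis) by library (x axis; blue, control; red, disease) for CD4 T cells among all cells, CD4 among CD4 and CD8 T cells, and cells with a Foxp3 UMI among CD4 T cells; points are library values, bars are 95% Wilson intervals, which cover counting error only, and the numbers are cells over total. Library 4 stands out at 1.33% of all cells, and the Foxp3 intervals of all 5 libraries overlap.

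Few cells of the CD4 gate held Foxp3 in any library. A Foxp3 UMI was found in 3 of 41 and 1 of 21 control CD4 T cells (7.32 and 4.76%) and in 1 of 19, 2 of 133 and 3 of 37 disease CD4 T cells (5.26, 1.50 and 8.11%). The lowest share was that of library 4 and the highest that of library 5, both disease libraries, and the group means differed by -1.08 percentage points (exact permutation test, p = 0.8). The gate holds only part of the Foxp3-positive T cells: beside these 10 there were 18 in the CD8 gate, 15 among T cells with both markers and 8 among those with neither. In library 4 the numbers were 2 in the CD4 gate and 11, 12 and 5 outside it. In endothelial and fibroblast cells, which should lack the gene, the share with a Foxp3 UMI was 0.0345 to 0.271%.

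Most of the 10 Foxp3-positive cells also carried other genes of the regulatory programme, given here as a description with no test, since 10 cells over 5 libraries are too few. Icos, a costimulatory receptor of activated and regulatory T cells, was found in 10 of 10 (1017 CPM, against 609 CPM in the 241 Foxp3-negative CD4 T cells). Ctla4 was found in 9 of 10 (2034 against 483 CPM), and so were Tigit, an inhibitory receptor (1106 against 604 CPM), Izumo1r, the folate receptor 4 gene of regulatory cells (1178 against 94.8 CPM), and the actin-capping gene Capg (1356 against 354 CPM). Both receptors of the TNF family that regulatory cells are known for, Tnfrsf4 (OX40) and Tnfrsf18 (GITR), were found in 8 of 10. Ikzf2, which encodes the transcription factor Helios, was found in 7 of 10 (1320 against 186 CPM), and the chemokine receptor gene Ccr8 in 6 of 10 (589 against 165 CPM). The same genes were also present in many Foxp3-negative cells: Icos in 64.7%, Tigit in 53.1%, Ctla4 in 42.3% and Ikzf2 in 24.1% of them.

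Some regulatory genes were found in few of the 10 cells. Ikzf4 was found in 3, Lrrc32 in 2 and Gpr83 in 1. Il2ra, the CD25 chain of the interleukin 2 receptor, was found in 3 of the 10 Foxp3-positive cells, all of library 5, and in 9 of the 241 Foxp3-negative cells, with 6 UMIs in the former and 11 in the latter. Klrg1, a gene of terminal effector cells, had no UMI in the 10 cells. Il10 had 4 UMIs, all in 1 cell of library 5. The 10 cells differed among themselves: the library 3 cell had 1 Foxp3 UMI and no UMI of Ctla4, Izumo1r, Capg or Ikzf2, whereas 1 library 5 cell had 5 Foxp3, 48 Tnfrsf4, 19 Ctla4 and 18 Ikzf2 UMIs. In all, 6 of the 10 had at least 2 Foxp3 UMIs, and their median depth was 4528 UMIs against 3305 in Foxp3-negative cells.

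**Figure D2:**
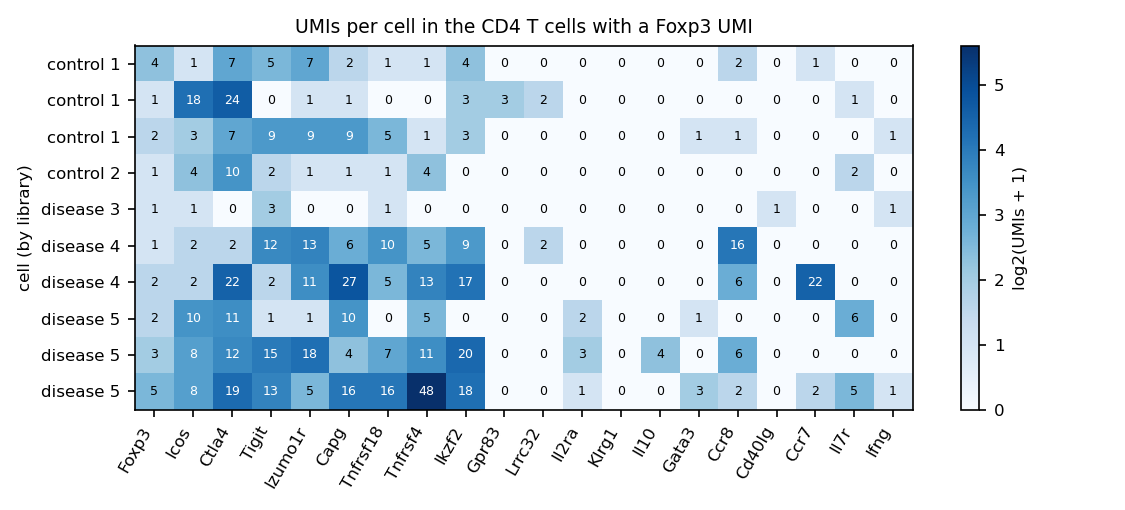
UMIs per cell (numbers; shade, log2(UMIs + 1)) of regulatory and helper T cell genes (x axis) in each of the 10 CD4 T cells with a Foxp3 UMI (y axis, by library). Icos is present in all 10 cells and Ctla4 in 9, while Il2ra is present only in the 3 cells of disease library 5.

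CD4 T cells differed from CD8 T cells of the same libraries in a broad set of genes. Counts were summed per library and cell type and fitted with edgeR's quasi-likelihood test with the library as a block, and p-values were adjusted over all 3031 genes tested. Of these, 64 were higher in CD4 T cells (2.11%) and 83 lower (2.74%), 4.85% in all. DESeq2 called 79 higher and 63 lower. Genes of the gate were left out, and every library lay on the same side for 14.3% of all genes. The lists of genes used below were chosen with results of these data known.

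Of 12 measured genes of naive and central memory cells (15 listed), 5 were higher in CD4 T cells at an adjusted p under 0.05 and none was lower. All 12 had a positive estimate (median 1.15), against 1342 of the 3031 genes (median -0.04). Ccr7, the receptor that guides T cells to lymph nodes, stood at 145 and 615 CPM in control and 229, 574 and 767 CPM in disease CD4 T cells, against 79.4 and 329 CPM and 173, 95.4 and 56.2 CPM in the CD8 T cells. In library 5, 81 of the 112 Ccr7 UMIs lay in 1 cell, and that library had the lowest share of CD4 T cells with the gene (21.6%). In library 4, 118 of the 274 Ccr7 UMIs lay in 18 cells, described below by their receptor segments, with 41 in 1 cell. The level was 1277 CPM in those 18 and 406 CPM in the other 115 CD4 T cells of library 4. Ccr7 was higher in CD4 T cells in 5 of 5 libraries, least so in library 3 (1.80 ± 0.42 (log2 fold change ± SE), adjusted p = 0.0263). Il7r, the survival cytokine receptor of resting T cells, stood at 196 and 529 CPM in control and 459, 348 and 384 CPM in disease CD4 T cells, against 40.7 and 412 CPM and 316, 58.9 and 66.4 CPM in the CD8 T cells. The gap between the cell types was narrow in libraries 2 and 3 and wide in libraries 1, 4 and 5 (1.64 ± 0.34, adjusted p = 0.0145). Lef1, a transcription factor of naive T cells, stood at 140.4 and 578 CPM in control and 186, 166 and 89.1 CPM in disease CD4 T cells, against 23.3 and 250.1 CPM and 115, 26.3 and 32.4 CPM in the CD8 T cells (1.76 ± 0.29, adjusted p = 0.00337). S1pr1, the receptor for egress from lymph nodes, rose by 1.33 and Bach2, a transcriptional repressor that keeps T cells quiescent, by 1.31. In endothelial cells S1pr1 stood at 363 and 359 CPM in control and 504, 392 and 514 CPM in disease libraries. In CD4 T cells it stood at 55.2 and 283 CPM and at 186, 107 and 130 CPM. Summed endothelial genes were higher in CD4 than CD8 T cells in libraries 2, 4 and 5 and lower in libraries 1 and 3. Whether endothelial transcripts took part in the S1pr1 rise was not tested. Among the CD4 T cells, those of control library 2 held the highest share with a Ccr7 UMI (66.7%) and the highest Lef1 level.

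Of 10 measured genes of the cytotoxic granule (12 listed), 7 were lower in CD4 T cells and none was higher (median -1.59). Gzmb, which encodes granzyme B, stood at 25.1 and 12.3 CPM in control and 0, 25.2 and 68.5 CPM in disease CD4 T cells, against 432 and 63.7 CPM and 343, 756 and 515 CPM in the CD8 T cells. The highest CD4 library, library 5, lay just above the lowest CD8 library, library 2, and within each of the 5 libraries CD8 T cells were higher (-4.16 ± 0.33, adjusted p = 1.26e-05). Ccl5, a chemokine of effector and memory cells, was the most abundant of the falls and stood at 2533 and 909.8 CPM in control and 3929.6, 3964 and 6673 CPM in disease CD4 T cells, against 22251 and 3829 CPM and 14489.9, 28943 and 23298 CPM in the CD8 T cells (-2.44 ± 0.18, adjusted p = 8.9e-06). In library 2, 58 of the 74 Ccl5 UMIs of CD4 T cells lay in 1 cell. At 1000 UMIs per cell Ccl5 was found in 50.8% of CD4 T cells of library 4, and also in 31.5% of endothelial cells there, which should lack it. Nkg7, a granule membrane protein gene, stood at 782 and 61.5 CPM in control and 817, 1752 and 1528 CPM in disease CD4 T cells, against 3893 and 769.8 CPM and 2477, 4875 and 4219 CPM in the CD8 T cells (-1.91 ± 0.21, adjusted p = 0.000144). Klrd1, the CD94 receptor gene of natural killer and CD8 T cells, fell by 3.17, Gzma by 2.95, Gzmk by 1.51, Ctsw by 1.62 and Cst7 by 1.56 on the log2 scale.

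In the wider list of type 1 helper and effector genes, 6 of 19 measured genes were lower and none higher (median -0.71). Among them were Cxcr6 (-1.52), a chemokine receptor of tissue-resident cells, Runx3 (-1.21), the factor of CD8 lineage identity, Fasl (-1.08) and Id2 (-0.71). Ifng, the main type 1 cytokine gene, did not pass the test: without thinning it was found in 43.9 and 0% of control and 10.5, 34.6 and 40.5% of disease CD4 T cells. Inhibitory receptors were lower in CD4 T cells for 3 of 7 measured genes, Pdcd1 (-1.48), Lag3 (-0.88) and Havcr2 (-2.50), and higher for none. Ctla4 was estimated at 0.54 ± 0.23 (adjusted p = 0.249) and Tigit at -0.67 ± 0.18 (adjusted p = 0.0625), and neither passed. Of 4 measured follicular helper genes, Slamf6 and Maf were higher, and no type 17 gene was abundant enough to be tested.

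Receptors of costimulation moved in both directions. Tnfrsf4 stood at 416 and 73.8 CPM in control and 158, 545 and 822 CPM in disease CD4 T cells, against 109 and 0 CPM and 36.4, 209 and 122 CPM in the CD8 T cells, which placed CD4 above CD8 T cells in 5 of 5 libraries (2.05 ± 0.26, adjusted p = 0.000606). Icos rose by 0.71 and Cd5, a modulator of T cell receptor signals, by 1.08. Tnfrsf9 (-1.63), Cd27 (-0.93) and Cd226 (-1.42), which are prominent on CD8 T cells, fell. The core regulatory list had 4 of 11 measured genes higher (Icos, Tnfrsf4, Capg and Izumo1r) and 2 lower (Tnfrsf9 and Nrn1). The effector regulatory list had Maf, Itgb1, Rora and Ccr8 higher and Tnfrsf1b and Gzmb lower, of 14 measured.

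Among the tested genes outside the gate that met the rule for naming, which asks for the same direction in every library, Ramp3 had the largest rise. Penk, which encodes the precursor of the enkephalins, was called with a larger estimate (3.04) but was higher in 4 of 5 libraries, and is named here after its values were seen. In library 4, 14 of its 20 UMIs in CD4 T cells lay in 1 cell. Cd40lg, whose levels in CD4 T cells were 166, 36.9, 402, 145 and 199 CPM in libraries 1 to 5 against 0.496, 9.81, 6.07, 2.17 and 0.852 CPM in CD8 T cells, did not pass the filter on low counts and was not tested. Ramp3 encodes a subunit of receptors for adrenomedullin and related peptides and stood at 100.3 and 148 CPM in control and 359, 205 and 369.9 CPM in disease CD4 T cells, against 20.4 and 24.5 CPM and 42.5, 48.9 and 29.0 CPM in the CD8 T cells. All 5 CD4 values lay above all 5 CD8 values (2.66 ± 0.25, adjusted p = 5.46e-05). In endothelial cells Ramp3 stood at 96.2 and 109 CPM in control and 134, 128 and 119 CPM in disease libraries. Maf, a transcription factor of helper and regulatory cells, stood at 261 and 24.6 CPM in control and 43.0, 266 and 260.3 CPM in disease CD4 T cells, against 38.2 and 0 CPM and 24.3, 43.6 and 66.0 CPM in the CD8 T cells (2.36 ± 0.24, adjusted p = 0.0001). Ass1, the arginine synthesis enzyme argininosuccinate synthase, stood at 145 and 246 CPM in control and 244, 289 and 295 CPM in disease CD4 T cells, against 33.3 and 98.1 CPM and 72.9, 40.0 and 53.6 CPM in the CD8 T cells, again without overlap (2.20 ± 0.23, adjusted p = 0.000144). The other rises that met the rule for naming were Tmem64 (2.11), Tbc1d4 (1.93), a regulator of glucose transporter traffic, Nfkbiz (1.87), Got1 (1.77), the cytosolic aspartate aminotransferase, and Rgs10 (1.47). Other falls were Nrn1 (-2.95), Cd7 (-2.70), Sult2b1 (-1.76) and Prex1 (-1.53).

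In the list of T cell receptor signal genes, 4 of 18 were higher, namely Nfkbia (1.29) and Nfkbid (1.28), inhibitors of NF-kappa-B, Rel (0.94), a subunit of it, and Cd247 (0.78), the zeta chain of the receptor, and Nr4a2 (-0.95) was lower. Homing receptors showed Itgb7 (1.42) and Itgb1 (0.80) higher with Ccr7 and S1pr1, and Selplg (-0.67) lower with Cxcr6. Of these, S1pr1 and Itgb1 were more abundant in endothelial cells than in CD4 T cells of every library. Of the cytokine receptors, Il7r was higher and Il2rb (-1.05) lower, of 10 measured. No gene of 20 measured interferon response genes passed, with a median of 0.04 against -0.04 over all genes. Junb (0.54) was the single call among 12 dissociation stress genes. Without library 4 the fit called 28 genes higher and 18 lower, and without library 5 it called 29 and 34. Without control library 1 it called 49 and 41, against 64 and 83 with all 5 libraries.

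**Figure D3:**
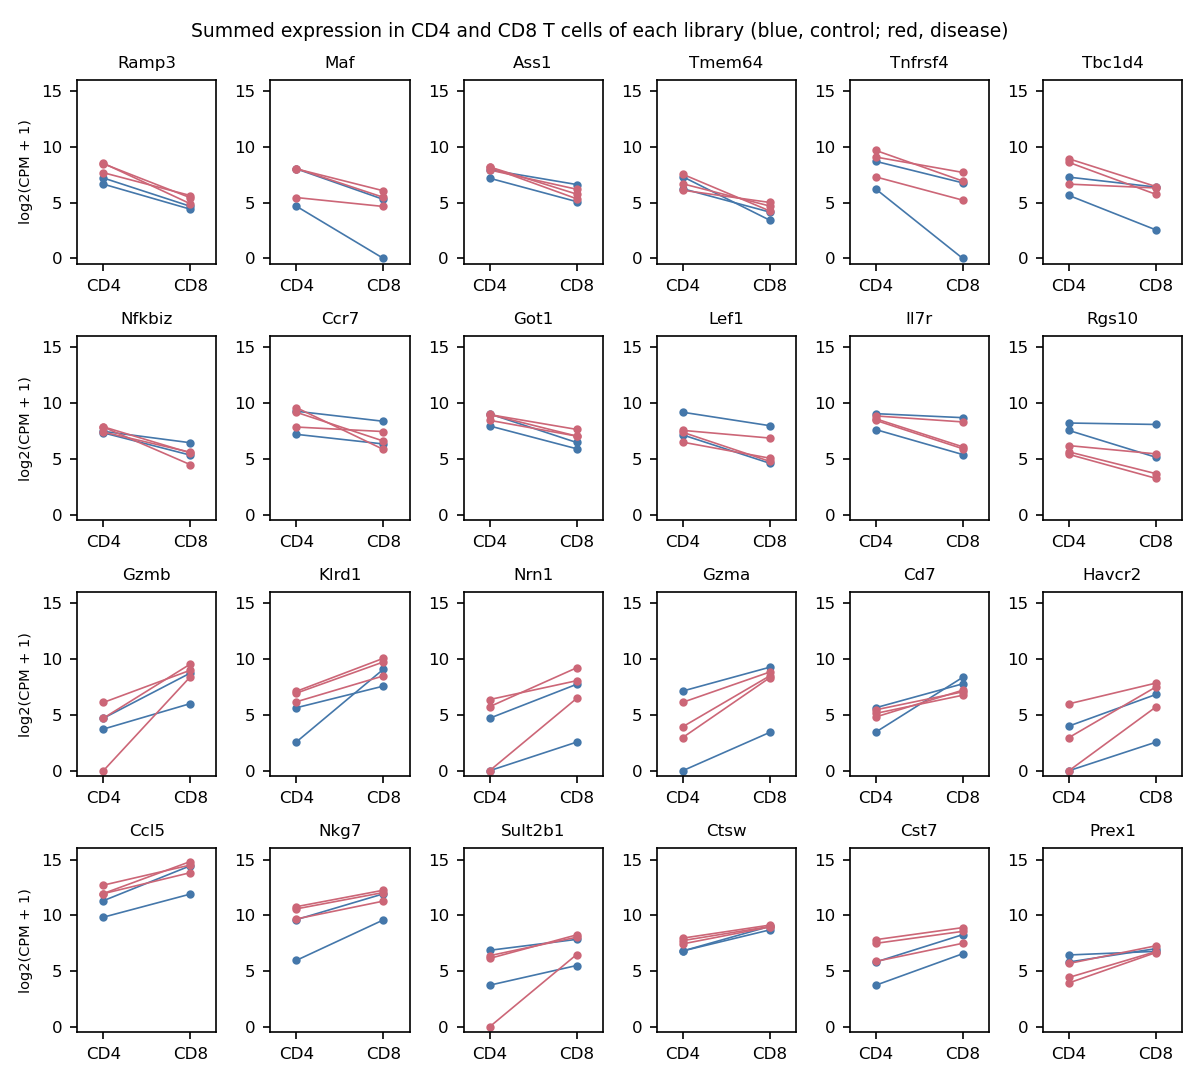
Summed expression, log2(CPM + 1) on the y axis, of the 12 largest rises and 12 largest falls among genes that met the rule for naming, in CD4 against CD8 T cells (x axis); each line joins the cells of 1 library (blue, control; red, disease). Lines slope down to the right for the genes of the upper 2 panel rows, such as Ramp3, and up for those of the lower 2, such as Gzmb.

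Markers of helper lineages were compared at equal depth, by drawing 1000 UMIs from each cell, which left 240 CD4 T cells because 11 of library 4 had fewer. Ifng was found in 26.8 and 0% of control and 5.26, 21.3 and 21.6% of disease CD4 T cells, and Tbx21, the type 1 master regulator, in 9.76, 9.52, 15.8, 8.20 and 13.5% of libraries 1 to 5. Library 2 had no cell with Ifng, Cxcr6, Pdcd1 or Lag3, which the other 4 libraries all had. Cxcr5, the follicular helper receptor, and Il2 had no UMI in the 240 thinned cells, which allows up to 1.25% of cells with a UMI at that depth. With all UMIs, Cxcr5 was found in 0.752% of CD4 T cells of library 4, and Il2 in 5.26% of library 3 and 0.752% of library 4. Il17a was found in 2 cells, both of library 5. Il10 was found in 4.88, 0, 0, 7.38 and 5.41% of libraries 1 to 5, and of CD8 T cells in at most 0.793%. Gata3, of type 2 and some regulatory cells, was found in 2.44 and 0% of control and 5.26, 5.74 and 8.11% of disease CD4 T cells. With all UMIs, Gata3 was found in 14.6, 0, 10.5, 15.0 and 18.9% of libraries 1 to 5 and Tbx21 in 29.3, 19.0, 21.1, 13.5 and 16.2%, so Gata3 was then the more frequent in libraries 4 and 5.

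No marker of this panel of 40 genes passed a test between the genotypes. The smallest p that the design allows, 0.1 in the exact permutation test, was reached by Cd40lg (18.3 percentage points higher in disease), Gata3 (5.15 higher), Ccr2 (3.03 higher) and Klrg1 (-5.98), and the Benjamini-Hochberg adjusted p was 1 for each. With all UMIs counted, the exact permutation p was 0.2 for Cd40lg, 0.4 for Gata3 and 0.3 for Klrg1 and Ccr2. The Ccr2 difference then turned to -4.40, and Tnfrsf18 reached a p of 0.1 (24.3 percentage points higher in disease). At equal depth Klrg1 was found in 1 of 41 and 2 of 21 control and in no disease CD4 T cells. Gata3 was found in 1 of 41 and 0 of 21 control CD4 T cells. Cd40lg at equal depth was found in 4 of 41 and 0 of 21 control and in 6 of 19, 20 of 122 and 8 of 37 disease CD4 T cells (9.76, 0, 31.6, 16.4 and 21.6%). The groups did not overlap in this share. In summed CPM they overlapped for Cd40lg, with 166 and 36.9 CPM in control and 402, 145 and 199 CPM in disease CD4 T cells. On that scale the groups did not overlap for 32.7% of the 2265 genes tested between the genotypes. In CD8 T cells the share with a Cd40lg UMI was at most 2.56%, and in endothelial cells 0%.

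For the comparison of genotypes, the targeted genes were examined before the rest. Ctla4 in CD4 T cells stood at 702 and 159.8 CPM in libraries 1 and 2 (control), against 86.0, 625 and 685 CPM in libraries 3 to 5 (disease). The groups overlapped, with the lowest and the 2nd highest value in disease libraries, and no difference was detectable (-0.02 ± 0.76 (log2 fold change ± SE), adjusted p = 0.996, edgeR). Pdcd1 stood at 201 and 24.6 CPM in libraries 1 and 2 (control), against 43.0, 373 and 459 CPM in libraries 3 to 5 (disease) (1.16 ± 0.88, adjusted p = 0.652), although both groups are labelled as lacking it. The labels do not state which exons were deleted, and 5-prime counts can lie outside them, so these levels do not check the labels.

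Of 2265 genes, 71 were lower in disease CD4 T cells and none was higher (3.13% of the genes tested, edgeR's quasi-likelihood test at an adjusted p under 0.05). At an unadjusted p under 0.05 there were 64 higher and 282 lower genes, and DESeq2 called 0 higher and 78 lower. Pfn1, the actin-binding protein profilin, stood at 2232 and 1918 CPM in libraries 1 and 2 (control), against 57.4, 69.2 and 109.6 CPM in libraries 3 to 5 (disease), a gap far wider than the spread within either group (-4.83 ± 0.34, adjusted p = 0.00207). Ndfip1, an adaptor of ubiquitin ligases that limits T cell activation, stood at 697 and 393 CPM in libraries 1 and 2 (control), against 28.7, 33.5 and 41.1 CPM in libraries 3 to 5 (disease) (-4.08 ± 0.40, adjusted p = 0.00464). Igfbp4, a gene of naive T cells and also of fibroblasts, stood at 492 and 934 CPM in libraries 1 and 2 (control), against 14.3, 77.6 and 20.6 CPM in libraries 3 to 5 (disease) (-4.03 ± 0.61, adjusted p = 0.0253).

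Most other named falls rested on very few disease transcripts, so their UMIs are given in place of fitted folds. Rnaset2a held 51 and 15 UMIs in control and 0, 2 and 0 in disease CD4 T cells, and its near-identical copy Rnaset2b, from which reads cannot be divided with certainty, held 28 and 14 against 0, 1 and 1. Cox5a, a subunit of respiratory complex IV, held 43 and 19 against 1, 4 and 1 UMIs. Cmtm7, the histone variant gene H2afj, Pgls, the nucleosome-binding Hmgn1, the respiratory complex I gene Ndufb2 and the kinase gene Pim2 each held 0 to 2 UMIs per disease library, against 6 to 34 per control library. Their adjusted p-values lay between 0.00464 and 0.0302 (edgeR). The splicing factor gene Snrpf held 35 and 15 against 2, 4 and 1 UMIs (adjusted p = 0.0156, edgeR). The heat shock gene Dnajb1 stood at 306 and 344 CPM in libraries 1 and 2 (control), against 86.0, 39.8 and 61.7 CPM in libraries 3 to 5 (disease) (-2.64 ± 0.43, adjusted p = 0.0261).

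The same genes were low in disease libraries in other cell types too. In the CD4 T cells, all 3 disease libraries lay below both control libraries for 71 of the 71 genes, which their choice largely fixes, against 16.3% of the 2265. In CD8 T cells, all 3 disease libraries lay below both control libraries for 69 of the 71 genes (97.2%, against 15.2% of all genes tested). In endothelial cells this held for 70 of the 71 (98.6%, against 19.6%) and in fibroblasts for 71 (100%, against 20.7%). The median log2 ratio of disease to control over the 71 genes, on the log2(CPM + 1) scale, was -2.85 in CD4 T cells, -2.25 in CD8 T cells, -1.89 in endothelial cells and -1.99 in fibroblasts. Pfn1, for example, stood at 869 and 759 CPM in control and at 62.5, 54.8 and 66.6 CPM in disease endothelial cells. These cell types come from the same 5 libraries and were not tested here. The labels give no batch, so genotype and any difference in how the libraries of each group were made cannot be told apart. The count itself leaned on single libraries: without library 4 no gene was called and without library 5 it was 1, while it was 26 without library 1 and 129 without library 3. Transcripts of other cell types differed between the libraries as given above, and without the 21 cells richest in them 114 genes were lower. Where an alternative gave an estimate for a named fall it was negative, and some of these genes had too few counts for an estimate in some alternatives.

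Of the 15 gene lists, only naive and dissociation stress genes had a call, with 1 each. Of 18 measured type 1 and effector genes, 17 had a higher estimate in disease (median 1.07, against -0.01 over all genes tested), and none passed the test. Cytotoxic granule genes had 7 of 8 higher estimates (median 1.17), the core regulatory list 9 of 11 (0.87), costimulation 10 of 11 (0.87) and the interferon response 14 of 17 (0.46), again with no call. Type 2 genes (0.87), follicular helper genes (0.68), inhibitory receptors (0.89), homing receptors (0.38), effector regulatory genes (0.24), cytokine receptors (-0.07) and T cell receptor signal genes (-0.05) had the medians given and no call. The naive list had 2 of 10 higher estimates (median -0.48), and Igfbp4 was its single call. Dissociation stress genes had the lowest median of the lists, with 3 of 12 higher estimates (median -0.52) and Dnajb1 as the call, and the part of cell handling in the other differences was not tested. The 2 control libraries lay far apart for Ctla4, at 702 and 159.8 CPM. Library 3 in turn stood near library 2 for Ctla4 and Pdcd1.

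**Figure D4:**
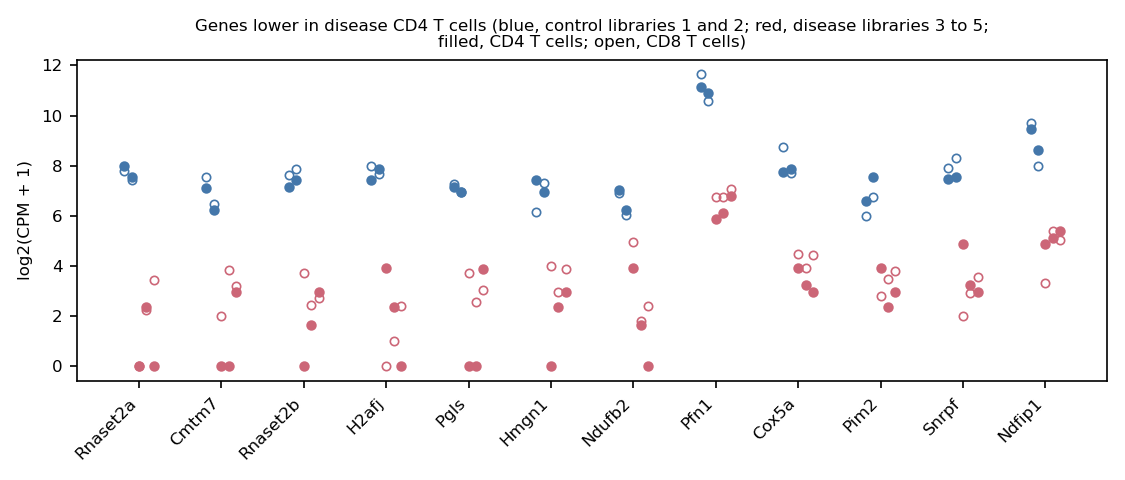
Summed expression, log2(CPM + 1) on the y axis, of the 12 named genes that were lower in disease CD4 T cells (x axis) in each library; filled points are CD4 T cells, open points CD8 T cells, blue control and red disease. All red points lie below all blue points for every gene, in both cell types; Pfn1 is the most abundant, at 1918 and 2232 CPM in control CD4 T cells.

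Whether the genotype changed CD4 T cells differently from CD8 T cells was tested with an interaction term. Of 4374 genes, 4 had a change more negative in CD4 T cells and none a more positive one (0.0914%, edgeR's quasi-likelihood test): Pi16, Ackr3, H2-Ab1 and H2-Eb1. All 4 are genes of other cell types, Pi16 and Ackr3 of fibroblasts and the 2 class II genes of antigen-presenting cells, and all were highest in CD4 T cells of library 1. There 1 cell held 190 of 198 H2-Ab1 and 196 of 207 H2-Eb1 UMIs of the CD4 T cells, 65 of 93 Pi16 UMIs lay in 1 cell, and so did 16 of 34 Ackr3 UMIs. Without the 21 CD4 T cells, and the CD8 T cells likewise, that held at least 20 UMIs of another cell type's list (307, 37, 64, 1410 and 401 CD8 T cells remained), no gene was called in either direction. Leaving out instead the cells with at least 2 UMIs of endothelial, fibroblast or neutrophil genes still gave 2 lower genes.

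Antigen receptor segments set 1 group of cells apart in library 4. Among 125 CD4 T cells of that library with a Trbv UMI, 26 had Trbv5 as their leading beta segment (20.8%, 95% Wilson interval 14.6 to 28.7%), against 2.17% of its CD8 T cells. Of the 98 cells with both an alpha and a beta segment, 18 paired Trbv5 with Trav12-3 (18.4%, interval 11.9 to 27.2%), while the next pair was held by 5 cells. The pair was absent from the CD4 T cells of the other 4 libraries and from the 1223 CD8 T cells with both chains in library 4, and 2 cells with neither Cd4 nor Cd8 had it. The coding second exons of both segments, which carry the V region, are printed to show what the cells share, from the GENCODE vM21 transcripts (GRCm38): Trbv5 at chr6:41062512-41062803 and, without its last base, Trav12-3 at chr14:53621945-53622244, both on the plus strand. Capitals in Trav12-3 mark the 10 bases at which the exon of 301 bases differs from its near copies Trav12d-3 and Trav12n-3 (96.7% identity to each), so the assignment of the alpha segment among these copies is uncertain.
Trbv5: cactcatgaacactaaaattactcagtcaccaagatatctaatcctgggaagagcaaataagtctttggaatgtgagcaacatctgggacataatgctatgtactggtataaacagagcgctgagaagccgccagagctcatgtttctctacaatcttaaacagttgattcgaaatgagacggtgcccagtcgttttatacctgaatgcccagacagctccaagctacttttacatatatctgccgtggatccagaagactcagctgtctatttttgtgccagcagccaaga
Trav12-3: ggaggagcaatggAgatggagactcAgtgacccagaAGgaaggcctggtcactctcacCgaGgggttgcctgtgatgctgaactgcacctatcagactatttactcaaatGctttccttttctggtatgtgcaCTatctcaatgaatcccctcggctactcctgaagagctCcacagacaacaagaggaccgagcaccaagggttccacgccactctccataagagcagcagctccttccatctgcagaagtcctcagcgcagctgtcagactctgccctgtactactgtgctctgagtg

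The joining regions of the receptors are not in the count files, so shared segments do not show that the cells are 1 clone. The 18 cells had a median of 4409 UMIs, against 2939 in the other 115 CD4 T cells of library 4, and 3 of the 18 were doublet calls. The genes below were chosen after their values were seen and are a description of 1 library, with no test. The type 1 cytokine gene Ifng was found in 12 of 18 cells against 34 of 115, with 2858 against 439 CPM. Lag3, an inhibitory receptor gene, was found in 16 of 18 against 30 of 115 cells, and Tox, a factor of chronically stimulated T cells, in 16 of 18 against 39 of 115. Tnfrsf4 was found in 17 of 18 against 44 of 115 cells and Icos in 17 of 18 against 76 of 115. The chemokine gene Ccl3 stood at 2273 against 33.8 CPM and Spp1, the osteopontin gene, at 2977 against 83.2 CPM, with 134 of 210 Ccl3 UMIs and 120 of 275 Spp1 UMIs in 1 cell each. Il7r went the other way, in 3 of 18 against 54 of 115 cells, and so did the type 1 gene Cxcr3, in 3 of 18 against 32 of 115. Gzmb was found in 0 of 18 against 7 of 115 cells. Ccl5 stood lower in the 18 cells (2923 against 4214 CPM), as did Nr4a1 (119 against 283 CPM). Foxp3 had no UMI in the 18.

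In the other libraries the leading beta segments of CD4 T cells were Trbv15 in library 1 (5 of 36 cells with a Trbv UMI, 13.9%), Trbv19 in library 2 (4 of 19, 21.1%), and Trbv13-2 in library 3 (4 of 18, 22.2%) and library 5 (6 of 33, 18.2%). The share of a single leading segment was thus as high in libraries 2 and 3 as in library 4. Pairs in these 4 libraries were nearly all different: 21 pairs among 22 cells in library 1, 13 among 13 in library 2, 14 among 14 in library 3 and 23 among 24 in library 5, against 69 among 98 in library 4. Repeats of a pair are more likely among more cells, and the libraries were not compared at equal cell numbers. In CD8 T cells of library 4 the leading pair was Trbv2 with Trav7-3, in 281 of 1223 cells, and 182 pairs were seen.

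**Figure D5:**
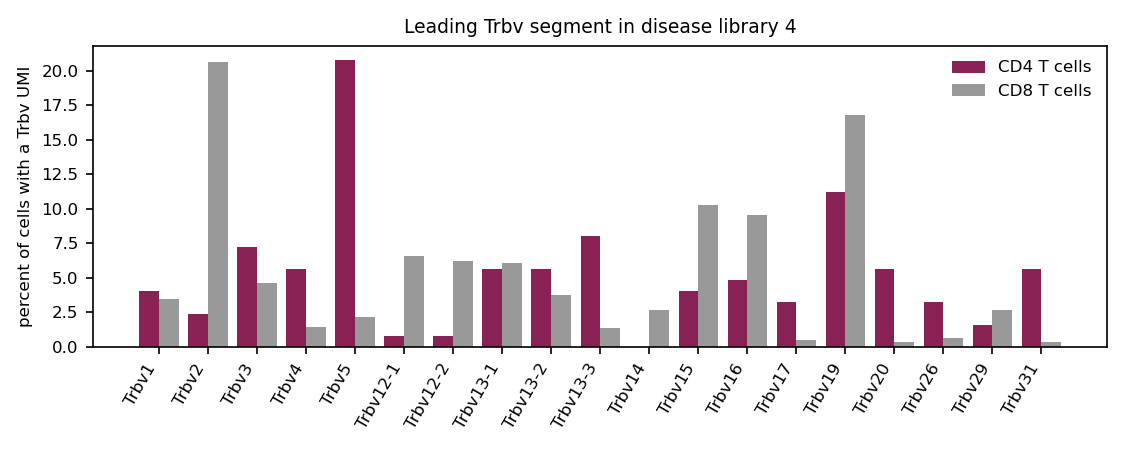
Percent of cells with a Trbv UMI (y axis) whose leading beta segment is the one named (x axis), in disease library 4; dark bars are CD4 T cells (125 cells) and grey bars CD8 T cells (1429 cells), segments above 1% in either. Trbv5 leads in CD4 T cells at 20.8% and is at 2.17% in CD8 T cells, where Trbv2 leads at 20.6%.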

How the data were processed

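Heart cells of 5 mouse libraries were measured by 5-prime droplet RNA sequencing. The deposited values are raw UMI counts per gene and barcode, which the file headers record as output of Cell Ranger 3.1.0 run by the authors. The submitters' processing notes also name Seurat 3. The deposited counts were read as they stand, and the lowest barcode held 500 UMIs. Members and gene lists were chosen with earlier results of these data known.

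Cells with over 10% mitochondrial UMIs were left out. Doublets were called with Scrublet (scanpy 1.11.5) and kept. Endothelial cells had at least 2 UMIs of Pecam1 and Cdh5, and fibroblasts at least 2 of Col1a1 and Dcn, with none of Ptprc. Counts were summed per library and cell type (at least 10 cells) and tested with edgeR 4.0.16 (TMM, filterByExpr, quasi-likelihood, Benjamini-Hochberg over all genes, threshold 0.05) in R 4.3.3. CD4 and CD8 T cells came from the same libraries, which paired them, so the library was a block. Shares were compared by exact permutation of the libraries (scipy 1.17.1). Beside the lists and the targeted genes, the rule named the 12 largest rises and falls whose mean log2 CPM was 5 or more and whose libraries all lay on one side. On simulated data, 4-fold changes were recovered in 60% of 200 genes for the genotype comparison (2269 genes), in 89% for CD4 against CD8 T cells (3037 genes) and in 53% for the interaction (4381 genes). Depth was 24991704 to 55053988 UMIs per library. Wilson intervals cover counting error only. DESeq2 1.42.0, other size factors, filters, cell limits and leaving out each library were tried. A few panel genes are not reported here.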

Additional observations from a re-analysis of the deposited data

Results flagged for a closer look

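T cells that carried both Cd4 and Cd8 UMIs lay outside the groups compared and held a Foxp3 signal. In library 4, 12 of 64 such cells (18.75%) and in library 5, 2 of 16 (12.5%) had a Foxp3 UMI, as did 1 of 24 in library 1. In the CD4 T cells the share was 1.50% in library 4 (2 of 133) and 8.11% in library 5 (3 of 37), and in CD8 T cells it was 0.712% in library 4 and 1.55% in library 5. All 15 of these cells also had UMIs of Ctla4, Ikzf2, Tigit, Tnfrsf9 and Capg, which the 91 Foxp3-negative cells with both markers held in 74.7, 42.9, 82.4, 62.6 and 60.4%. Tnfrsf4, Tnfrsf18 and Izumo1r were found in 14 of the 15 and Icos in 13. Nrp1 was found in 9, Ikzf4 in 7, Il2ra in 5, Il10 in 4, Lrrc32 in 2 and Gpr83 in 0. The 15 cells held Ccl5 at 21423 CPM and Nkg7 at 4370 CPM, against 2552 and 1820 CPM in the Foxp3-positive CD4 T cells. Their median depth was 7396 UMIs, against 4528 in the 10 Foxp3-positive CD4 T cells, 1 of the 15 was a doublet call, and whether depth or doublets took part was not tested.

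The change between genotypes was more negative in CD4 than in CD8 T cells for Pi16 (-4.78 on the log2 scale, adjusted p = 0.00459), Ackr3 (-4.35, adjusted p = 0.0464), H2-Ab1 (-3.98, adjusted p = 0.00459) and H2-Eb1 (-3.22, adjusted p = 0.0410) in edgeR's interaction test. No gene was called without library 1, and none without library 5.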

How the results depend on the processing

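Counts of called genes depended on the libraries and filters. A minimum of 25 cells left out libraries 2 and 3, so that 1 control library stood against 2 disease libraries: 29 genes were higher and 163 lower in disease CD4 T cells, 130 were higher and 119 lower in CD4 than CD8 T cells, and the interaction called 58 higher and 61 lower. Testing every gene with a count gave 32 and 194, 123 and 248, and 14 and 17. DESeq2 called 1 higher and 2 lower in the interaction, and the 25% mitochondrial limit and doublet removal 1 higher each. Without cells with at least 2 endothelial, fibroblast or neutrophil UMIs, 41 were lower in disease, 74 higher and 52 lower in CD4 than CD8 T cells (64 and 83 with all cells) and 2 lower in the interaction. Without cells holding at least 20 UMIs of another cell type (chosen after seeing the data), the values were 114 lower in disease, 112 higher and 101 lower in CD4 T cells and 0 lower in the interaction, where H2-Ab1 turned to 0.24. Foxp3-negative cells alone gave 46 lower in disease. Leaving out 1 library gave 0 to 6 higher and 0 to 129 lower in disease, 28 to 108 higher and 18 to 92 lower in CD4 T cells, and 0 to 22 higher and 0 to 28 lower in the interaction. Where 1 control library was left, its spread is assumed to be that of the disease libraries. The cause was not tested.

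CD4 and CD8 T cells were paired by library: with no replicate block 4 genes were higher and 3 lower. No paired analysis was possible for the genotypes because the groups share no library numbers.

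The Ctla4 difference between genotypes turned to 0.0167 with DESeq2, 0.0182 with other size factors, 0.20 with every gene and 0.23 in Foxp3-negative cells, and ran from -0.53 to 1.46 without 1 library. Leaving out 1 library moved the share differences from -0.00516 to 0.499 (of all cells), -22.8 to 1.90 (of CD4 and CD8 T cells) and -2.66 to 0.646 percentage points (Foxp3), and thinned cells gave 2.78 for Foxp3. With all UMIs, the panel differences turned to -9.24 for Tcf7, -4.40 for Ccr2, -7.22 for Tbx21 and 3.65 for Areg. The test of Foxp3-positive against Foxp3-negative cells and its alternatives were not run, because no library held 10 Foxp3-positive cells.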
